A study of Drosophila melanogaster with 6 samples.

Results

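The regions described here are the Su(H) binding peaks in the 2 homeotic complexes of Drosophila melanogaster, the gene clusters that hold the 8 Hox genes of the fly. They were taken by position on chromosome arm 3R in FlyBase release 5 coordinates, with no measured value in the rule. The complexes and the rule were, however, chosen with earlier results of these data known. A peak belonged to the Antennapedia complex when its midpoint lay between 2.48 and 2.83 Mb, a window of 350 kb, and to the bithorax complex when it lay between 12.48 and 12.8 Mb, a window of 320 kb. This gave 41 peaks, 33 in the Antennapedia complex and 8 in the bithorax complex, out of 505 peaks on 3R and 4403 in the whole list.

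The peaks came from chromatin immunoprecipitation and sequencing (ChIP-seq) of embryos with a rabbit polyclonal antibody raised against amino acids 259 to 594 of the Su(H) protein, Suppressor of Hairless. The labels give 3 ChIP libraries and 3 libraries of input DNA, all from 1 strain, Y cn bw sp, at the stage named Embryo 0-8, with the sex unknown. All libraries shared the same genotype label. It names the alleles y[1] and oc[R3.2], next Gr22b[1], Gr22d[1] and cn[1], then CG33964[R4.2] with bw[1] and sp[1], and finally LysC[1] followed by lab[R4.2], MstProx[1], GstD5[1] and also Rh6[1], so that an allele of labial, 1 of the Hox genes, is among them. The protocol text names an egg laying of 8-16 hours, which differs from the stage label. The deposited list gives 1 position and 1 score per peak for the series as a whole, so there is no value per library, no spread between replicates and no read depth behind a peak, and no test between libraries was possible.

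Hox genes encode homeodomain transcription factors that give each segment along the head-to-tail axis its identity, and they lie along the chromosome in much the same order as the segments they specify. In the fly they are divided between the Antennapedia complex, which serves head and anterior thorax, and the bithorax complex, which serves posterior thorax and abdomen and is a classic target of Polycomb repression. Su(H) is the DNA-binding factor of the Notch pathway, which joins the Notch intracellular domain at activated genes and co-repressors in its absence.

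Gene positions came on Release 6 and were not mixed with the release 5 positions of the peaks. The gene table was used only for names and for the order of neighbours, and peaks are therefore given by position and not assigned to single Hox genes. All 8 Hox genes were found on 3R in that table. In the Antennapedia complex the order along the arm was lab (labial, head and midgut), pb (proboscipedia, mouthparts), Dfd (Deformed, jaw segments), Scr (Sex combs reduced, the labial and anterior thoracic segments) and Antp (Antennapedia, thorax). Between lab and Antp the table places the zygotic patterning genes zen and ftz, the maternal anterior determinant bcd, the cell adhesion gene Ama, zen2, 7 cuticle genes of the Ccp84A family, 2 miRNA genes (mir-993 and mir-10), 4 tRNA genes and 2 genes for 7SL RNA. The tRNA and 7SL genes lie next to each other between Dfd and Scr. From lab to Antp inclusive there were 43 genes, of which 19 coded for proteins and 5 were Hox genes.

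In the bithorax complex the order was Ubx (Ultrabithorax, posterior thorax), abd-A (abdominal-A, anterior abdomen) and Abd-B (Abdominal-B, posterior abdomen). The table holds 16 genes from Ubx to Abd-B inclusive, of which 6 coded for proteins and 3 were Hox genes. The remaining protein-coding genes were CG31275, Glut3 and MSAmiP. Long noncoding RNAs of the regulatory region (lncRNA:bxd, lncRNA:iab4 and lncRNA:iab8) and the miRNA genes mir-iab-4 and mir-iab-8 also lie there.

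The first comparison asked how densely the complexes carried Su(H) peaks. The Antennapedia complex held 9.43 peaks per 100 kb (exact 95% Poisson interval 6.49 to 13.2) and the bithorax complex 2.5 per 100 kb (1.08 to 4.93). On the rest of 3R, 464 peaks, counted over the stretch of the arm that is bounded by its outermost peaks, gave 1.73 per 100 kb (1.57 to 1.89). The Antennapedia complex thus stood above both the bithorax complex and the arm, while the bithorax complex could not be told from the arm.

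As ratios, the Antennapedia complex was 5.46 times as dense as the rest of 3R (exact conditional binomial 95% interval 3.71 to 7.78) and 3.77 times as dense as the bithorax complex (1.71 to 9.45). The bithorax complex was 1.45 times as dense as the rest of 3R, with an interval from 0.621 to 2.88 that includes equal density. These intervals reflect counting error alone, and they take peaks as independent, which neighbours need not be. With each run of peaks or single peak counted as 1 item, a run being a chain of peaks with at most 5 kb between neighbours, the Antennapedia complex held 16 items and the bithorax complex 7. The Antennapedia complex was then 3.95 times as dense as the rest of the arm (2.23 to 6.52) and 2.09 times as dense as the bithorax complex, where the interval of 0.813 to 6.01 includes equal density. The excess over the arm therefore held in both ways of counting. The difference between the complexes held when all peaks were counted individually, and for items its interval included equal density.

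**Figure D1:**
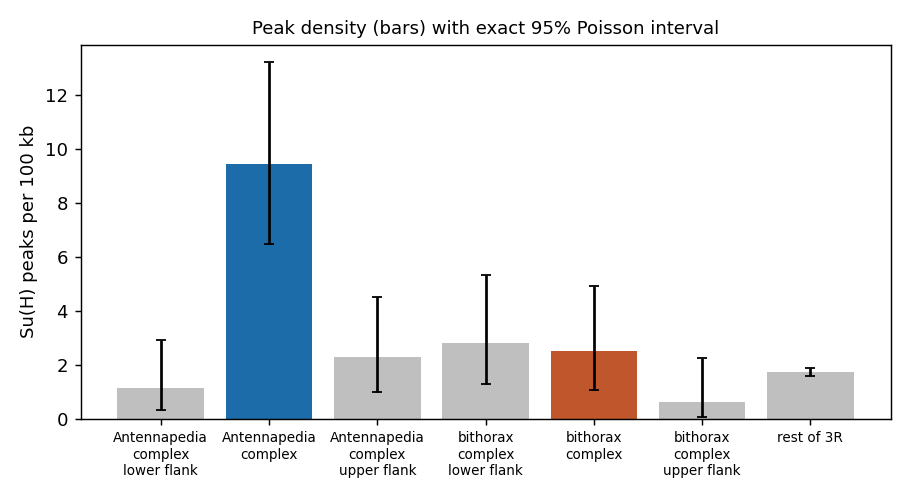
Peaks per 100 kb (bars) with exact 95% Poisson intervals (lines) for each homeotic complex, its flanks of the same length at lower and at higher coordinates, and the rest of 3R. The Antennapedia complex stands at 9.43 per 100 kb, and its flanks at 1.14 and 2.29.

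The high density was seen within the window and not beside it. The flank of 350 kb at lower coordinates held 4 peaks, 1.14 per 100 kb (0.311 to 2.93), and the flank at higher coordinates held 8, 2.29 per 100 kb (0.987 to 4.5). Neither interval overlaps that of the Antennapedia complex. Beside the bithorax complex the flanks of 320 kb held 9 and 2 peaks, 2.81 and 0.625 per 100 kb, with intervals of 1.29 to 5.34 and 0.0757 to 2.26 that both overlap that of the complex.

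The complexes were next set against windows of their own length moved along 3R in steps of 10 kb. Of 2719 windows of 350 kb, 2 held at least 33 peaks (0.0736%), and both overlapped the Antennapedia complex itself. The median window held 5 peaks, and the fullest that did not touch the complex held 23, at 24861165 to 25211164. No window of this length on the other large arms reached 33 either, as the fullest held 26 on 2L, 25 on 2R, 25 on 3L and 19 on X. Among the windows examined on these 5 arms, the stretch around the Antennapedia complex was thus the one richest in peaks. Of 2722 windows of 320 kb on 3R, 771 held at least the 8 peaks of the bithorax complex (28.3%), so that its number was an ordinary one for the arm. These shares describe the arm and carry no p-value, since neighbouring windows share peaks.

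**Figure D2:**
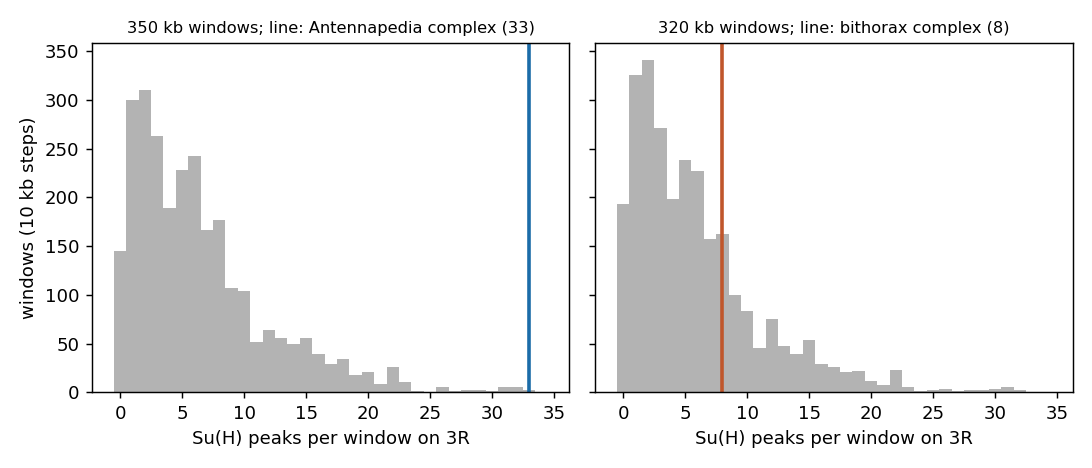
Number of windows along 3R (vertical axis, 10 kb steps) by the Su(H) peaks they hold (horizontal axis), for windows of 350 kb at left and 320 kb at right, with a vertical line at the complex of that length. The line of the Antennapedia complex stands at 33, the end of the distribution, and that of the bithorax complex at 8.

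By covered length the Antennapedia complex was less extreme. Its peaks covered 13.9 kb or 3.98% of the window, against 1.06% in the bithorax complex and 0.878% on the rest of 3R. Of the 350 kb windows on 3R, 61 (2.24%) had at least as many covered bases, and 60 of these did not touch the complex. When runs and single peaks were counted in place of peaks, 12 windows (0.441%) reached 16, and 10 of them lay elsewhere on 3R. On 3R the complex thus ranked first by number of peaks, shared the highest number of separate groups with other windows, and was exceeded in covered bases.

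Within the Antennapedia complex the peaks were gathered toward lower coordinates. In successive bins of 50 kb from the window start there were 8, 4, 7, 6, 3, 3 and 2 peaks. The median gap between neighbouring peaks was 3.7 kb, where on the rest of 3R it was 16.0 kb. Of the 33 peaks, 25 lay in runs, 75.8% (exact 95% binomial interval 57.7 to 88.9%), against 50.9% of the peaks on the rest of 3R (46.2 to 55.5%). These intervals take peaks as independent. A share of at least 75.76% was reached by 432 of the 350 kb windows with a peak (16.8%), and 407 of these did not touch the complex. A higher density brings peaks closer by itself, and its part in the share of the Antennapedia complex was not tested.

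These 25 peaks formed 8 runs, 3 of which had 4 or more peaks, out of 18 runs of that size on 3R. The run of 6 peaks reached from 2583556 to 2597684, over 14.1 kb. Its scores were 18.04, 30.91, 47.49, 19.34, 23.87 and 12.85 in order of position. The score is the authors' own value per peak, whose scale is not stated, and it is used to describe and rank peaks within the list. The strongest peak of this run, 2587983 to 2588430, was 448 bp wide and ranked 24 of 505 on 3R, and the adjoining peak of score 30.91, 2586853 to 2587628, ranked 47. The run thus joined strong and weak peaks, and only 4 runs on 3R had more peaks.

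The run of 5 peaks reached from 2641065 to 2651046, over 10.0 kb, and held the strongest peaks of either complex. Its scores were 17.61, 12.62, 70.12, 70.12 and 13.16 in order of position. The peaks of score 70.12 were 2645936 to 2646477 and 2647896 to 2648436, 542 and 541 bp wide, and they shared rank 12 on 3R, counted from the highest score. They are equal in score and differ by 1 bp in width. Equal scores were also found elsewhere, as 47.49 and 30.29 were each held by 2 peaks on 3R. How reads from repeated sequences were placed is not given in the sources used here. Whether the pair of score 70.12 lies on repeated genes was not tested. Without this pair the Antennapedia complex was 5.13 times as dense as the rest of 3R (3.44 to 7.38), a value within the interval found with them.

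The run of 4 peaks lay from 2511884 to 2518915 and had scores of 15.25, 26.42, 17.37 and 19.86. Its peak of 26.42 (2512692 to 2513108) ranked 67 on 3R, so this run was more even and weaker than the run of 5. The 5 further runs were pairs. The pair at 2733838 to 2735622 joined the third strongest peak of the complex, 2733838 to 2734293 with a score of 55.05 and rank 18, to a neighbour of score 14.90. In the other 4 pairs, at 2490102 to 2491259, 2527956 to 2530358, 2575030 to 2577338 and 2690210 to 2691497, no peak scored above 16.64.

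The remaining 8 peaks of the Antennapedia complex stood alone, without a neighbour within 5 kb. The one at 2502985 to 2504067 was the widest of both complexes, 1083 bp, with a score of 30.29 and rank 50 on 3R. The others, at 2535554 to 2535890, 2618201 to 2618643, 2667455 to 2667831, 2719001 to 2719256, 2761468 to 2761863, 2804125 to 2804344 and 2826487 to 2826889, scored between 9.65 and 19.10. Beyond the first 200 kb of the window, 4 of the 8 peaks stood alone and 4 lay in pairs. The longest intervals without a peak were 42.3 kb, from 2761864 to 2804124, and 39.1 kb, from 2535891 to 2575029. Beyond the last peak of the complex the next one lay 106.0 kb away.

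**Figure D3:**
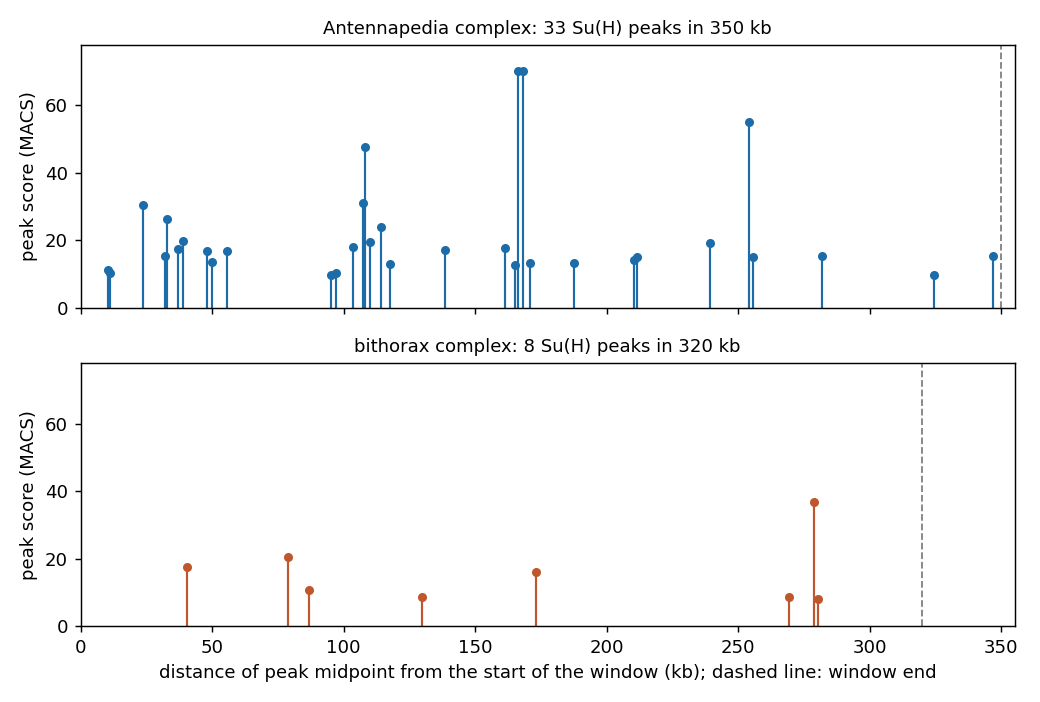
Score of each Su(H) peak (vertical axis) against the distance of its midpoint from the start of the window (horizontal axis, kb) in the Antennapedia complex above and the bithorax complex below. Of the 33 peaks above, 25 lie in the first 200 kb, the highest scores being 70.12, whereas the 8 peaks below are spread out and reach 36.78.

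The bithorax complex carried fewer and more scattered peaks than the Antennapedia complex. Its median gap between neighbours was 37.8 kb, where on the rest of 3R it was 16.0 kb. That median rests on the few gaps between 8 peaks, and the part of peak density in it was not tested. Bins of 50 kb held 1, 2, 1, 1, 0 and 3 peaks, and the last 20 kb held none. The longest interval without a peak, 95.6 kb from 12653404 to 12748960, was more than the longest in the Antennapedia complex, and the next was 43.1 kb, from 12609985 to 12653075. A further stretch of 121.5 kb began at the last peak and ran past the end of the window. As the depth is unknown, the absence of a peak there says only that none was called.

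Its strongest and widest peak was 12758229 to 12759086, 858 bp wide with a score of 36.78, which ranked 39 of 505 on 3R. Together with a weak neighbour, 12760294 to 12760597 with a score of 8.21, it formed the only run of the complex. The next in score were 12558509 to 12559105 with 20.65, 12520205 to 12520736 with 17.61, 12653076 to 12653403 with 16.03 and 12566537 to 12566745 with 10.65. The weakest single peaks were 12609784 to 12609984 with 8.74 and 12748961 to 12749316 with 8.56. In all, 2 of its 8 peaks lay in a run, 25% (3.19 to 65.1%), an interval too wide to set it apart from the 50.9% of the rest of 3R. The intervals of the 2 complexes also overlap.

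The last comparison asked whether peaks in the complexes were stronger or wider than elsewhere on the arm. The median score was 16.64 in the Antennapedia complex (quartiles 13.24 and 19.86), 13.34 in the bithorax complex (8.695 and 18.37) and 13.68 on the rest of 3R (10.99 and 18.9). A peak of the Antennapedia complex had the higher score in 62.9% of pairs with a peak of the rest of 3R and in 64.2% of pairs with one of the bithorax complex. A peak of the bithorax complex was the higher in 43.8% of pairs with the rest of 3R. Peaks are not replicates, and no test was made of these shares.

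At a cut of the top 20% of 3R scores, the share of strong peaks in the complexes could not be told from that on the arm. Among the 20% of 3R peaks with the highest scores, those of at least 20.17, were 8 of the 33 peaks of the Antennapedia complex, 24.2% (11.1 to 42.3%), and 2 of the 8 of the bithorax complex, 25% (3.19 to 65.1%). On the rest of 3R the share was 19.6% (16.1 to 23.5%), which lies within both intervals. With cuts over the whole list, the Antennapedia complex was 8.11 times as dense as the rest of 3R in the top 50% (4.61 to 13.4). In the top 20% it was 8.69 times as dense (3.35 to 19). Both values exceed the 5.46 found for all peaks, and both intervals overlap its interval of 3.71 to 7.78. The highest score on the rest of 3R, 445.63, was far above the 70.12 of the Antennapedia complex. Of the 350 kb windows with a peak, 210 (8.16%) had a maximum of at least 70.12, and 159 of these did not touch the complex. Of the 320 kb windows with a peak, 802 (31.7%) reached the 36.78 of the bithorax complex, and 770 of these did not touch it. The Antennapedia complex therefore differed from the arm in the number of its peaks. Its median score of 16.64 was also higher, with an interval of 14 to 19.1 that leaves out the 13.68 of the rest of 3R. That interval takes peaks as independent. A median of at least 16.64 was reached by 579 of the 350 kb windows with a peak (22.5%). Of these, 543 did not touch the complex, so such a median was not particular to it. A difference in the share of peaks in the top 20% of 3R scores was not detectable with 33 peaks.

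Median widths lay close together. The median was 377 bp in the Antennapedia complex (quartiles 305 and 482, range 201 to 1083), 342 bp in the bithorax complex (280.2 and 548.2, range 201 to 858) and 340 bp on the rest of 3R (260 and 520). A peak of the Antennapedia complex was the wider in 54% of pairs with the rest of 3R, and one of the bithorax complex in 49.9%. None of the 41 peaks approached the broadest of the arm, which was 8811 bp wide.

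**Figure D4:**
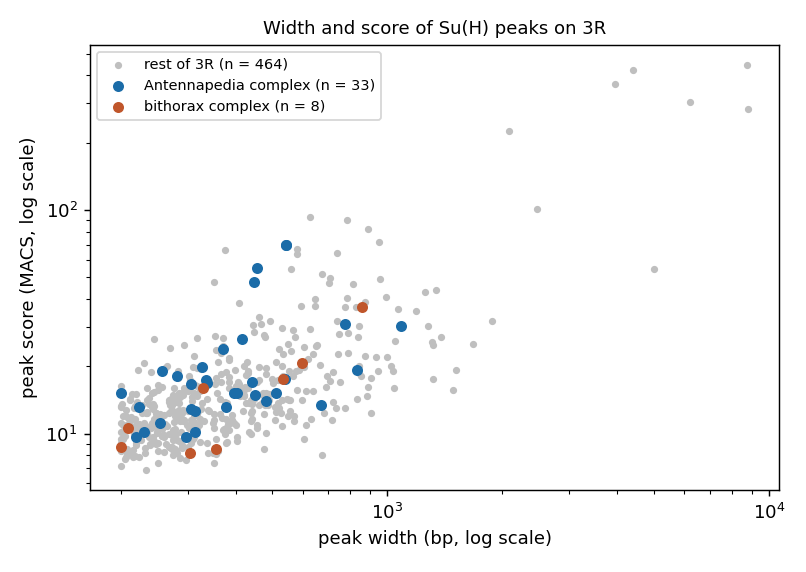
Score (vertical axis, log scale) against width (horizontal axis, bp, log scale) of the Su(H) peaks on 3R, with the 33 peaks of the Antennapedia complex and the 8 of the bithorax complex in colour and the remaining 464 in grey. The peaks of both complexes lie among the others and reach neither the widths near 8811 bp nor the scores near 445.63 of the arm.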

How the data were processed

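The authors deposited 1 peak list for the series, with 1 score per peak. Per the file headers the coordinates are on FlyBase release 5, and the source column names MACS. Not given in the sources used here are the scale of this score, the threshold for a peak and how the libraries (3 ChIP, 3 input) entered the calling. The submitters' processing notes list BWA, MACS2, the build BDGP5 and CASAVA in its versions 1.7.0.2 and 1.7.0.3, with no step for any of them.

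Positions were counted from 1. Density on the rest of 3R used the span from 1165 to 27539642. Runs joined peaks across gaps of up to 5 kb, edge to edge. Intervals are exact 95% Poisson, binomial or conditional binomial intervals for counting error alone. Intervals of medians were read from the ranked values, with peaks taken as independent. Windows started at the first peak of the arm. The code was tested on simulated peaks with known answers. Coverage of the ratio interval was checked with independent counts only, which does not cover peaks that depend on their neighbours. Named peaks were the 5 highest in score and the widest of each complex, with runs of 3 or more peaks and the 2 longest intervals without a peak, and the remaining peaks were then added so that all are accounted for. The complexes, rules and named genes were chosen with earlier results of these data known. Of 10 further listed genes, 7 were found by symbol on 3R. Calculations used Python 3.11.15, numpy 2.4.6 and scipy 1.17.1.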

Additional observations from a re-analysis of the deposited data

How the results depend on the processing

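Of 97 recalculated values, 75 were counted as the same, 20 as moved, and in 2 an interval came to include equal density. A density ratio counted as the same when its interval still included, or still excluded, equal density. A percentage of windows did so within 1.5-fold, and any other value within the interval of the reported value. No density ratio changed direction. The ratio of the bithorax to the Antennapedia complex, 0.265 (0.106 to 0.585), became 0.156 (0.00347 to 1.22) in the 20% of all peaks with the highest score, where 1 and 7 peaks were left, and 0.479 (0.166 to 1.23) with runs and single peaks as items, a way of counting chosen after the data were seen, as was leaving out the equal pair. The ratio of the Antennapedia complex to the rest of 3R ran from 3.95 to 8.69, with every interval above equal density. In the top 50% and the top 20% of scores it was 8.11 and 8.69, above the reported interval of 3.71 to 7.78. The ratio of the bithorax complex to the rest of 3R ran from 1.29 to 1.89, with every interval including equal density. Keeping the top 50% and the top 20% of scores lowers densities by construction, to 4.86 and 2 per 100 kb in the Antennapedia complex and to 0.938 and 0.312 in the bithorax complex. Dropping weaker peaks also removes neighbours and raises the median score by construction. The share of peaks in runs was then 0 in both for the bithorax complex, which kept 1 peak in the top 20%. That of the Antennapedia complex was 57.1% in the top 20%. The median score of the Antennapedia complex was 19.9 and 47.5 in these subsets, and its median width in the top 20% was 541 bp. The percentage of windows with as many peaks as the Antennapedia complex was 0.452 and 1.78 in the top 50% and 20%, 0.11 and 0.257 with edges moved outward and inward by 20 kb, 0.441 for items, 0.0174 over 5 large arms, and 0 both for windows that do not overlap each other and for those touching neither complex. For the bithorax complex it was 18.1 after joining gaps of up to 1 kb and 15.7 for items. Motif comparisons in Hox promoters were not run, as no promoter sequence was used here. Leaving out single libraries was not possible. No paired analysis was possible because 1 shared peak list stands for all libraries. With no depth known, a missing peak shows only that none was called.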
